A study of Homo sapiens with 4 samples.

Results

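The interleukin genes comprised 85 of the 19951 protein-coding genes of GENCODE release 29, chosen because their symbol begins with IL followed by a digit. They were 40 ligand genes, 41 receptor genes, 3 genes for secreted inhibitors (IL1RN, IL36RN and IL18BP) and 1 gene for an enzyme (IL4I1, an amino acid oxidase). CXCL8, whose protein is also called interleukin-8, has a chemokine symbol and was counted with the relatives of the family. HepG2 and Huh7, established human liver cancer lines, were each profiled in 1 library before and 1 library after sonodynamic therapy (SDT). In SDT, low-frequency ultrasound activates a sensitizer, here HMME, which was carried into the cells with the drug lonidamine (LND) in nanobubbles. Group A was HepG2 cells before and group B HepG2 cells after treatment, and group C was Huh7 cells before and group D Huh7 cells after treatment. Ultrasound, sensitizer, drug and nanobubbles all separated B from A and D from C, so their parts cannot be told apart.

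Interleukins are secreted proteins that carry signals between cells, mostly cells of the immune system, and each acts through a receptor built of a ligand-binding chain and, in most cases, a chain shared with other interleukins. Receptors of the IL-6, IL-10, IL-12 and common gamma chain families signal through JAK kinases and STAT factors, whereas receptors of the IL-1 family signal through the adaptor MYD88 and the kinases of the IRAK group. In the liver, IL-6 and IL-1 are known for switching on the acute-phase proteins that hepatocytes release into blood.

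A gene is called listed here when the authors had called it differentially expressed between the libraries of a comparison and it stood under at least 1 GO term in their table. The tables give gene lists and no levels, so neither the direction nor the size of a change is known. With 1 library per group no listing has a replicate check. The depth of the libraries was not used here.

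Of the 85 interleukin genes, 28 (32.9%) were listed in HepG2 (B vs. A), where 23.9% of all protein-coding genes were listed. In Huh7 cells (D vs. C), 36 of the 85 (42.4%) were listed, beside 21.9% of all protein-coding genes. In both comparisons 17 interleukin genes (20%) were listed, beside 11.4% of all protein-coding genes. The shared genes made up 60.7% of the HepG2 interleukin list and 47.2% of the Huh7 interleukin list. Over all protein-coding genes the shared part was 47.7% and 52.2% of the lists. A further 11 interleukin genes were listed in HepG2 alone, 19 in Huh7 alone, and 38 in neither. Whether the lines differ was not tested, since a gene that misses the threshold in a line may still have changed there. Protein-coding genes without a GO annotation could not be listed, which lowers the share of all protein-coding genes. Chemokines and chemokine receptors, the other large group of immune signal genes, had 14 of 66 genes (21.2%) listed in HepG2 and 21 of 66 (31.8%) in Huh7.

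**Figure D1:**
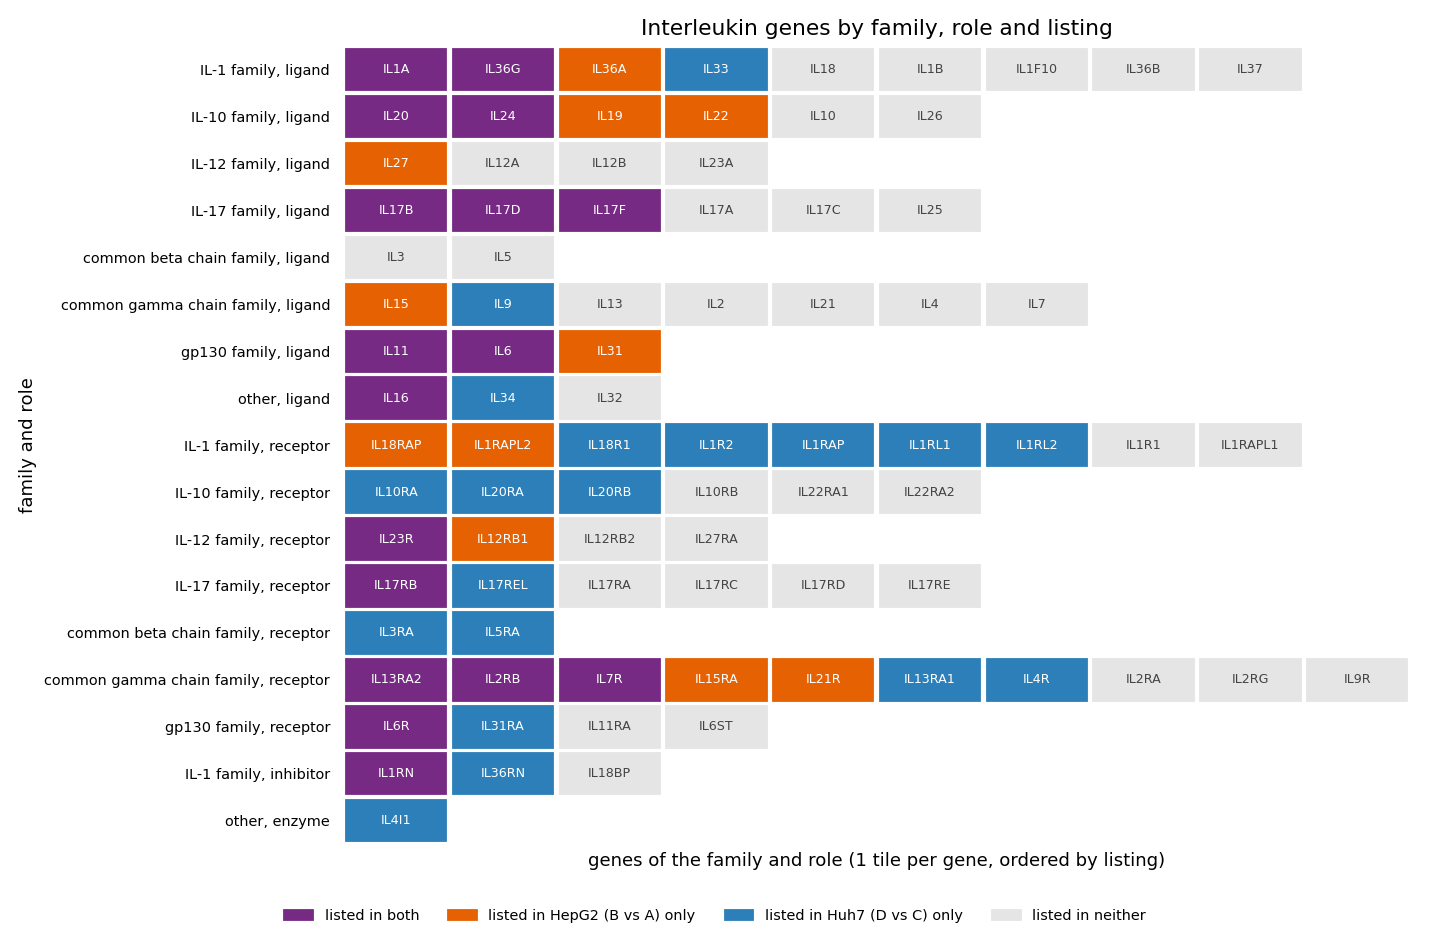
Interleukin genes by family and role (rows), with 1 tile per gene coloured by the comparison in which it was listed. Of 85 genes, 17 were listed in both comparisons, 11 in HepG2 alone, 19 in Huh7 alone and 38 in neither.

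By the GO tables, the share of ligand genes was above that of receptor genes in HepG2 and below it in Huh7. Among the 40 ligand genes, 16 (40%) were listed in HepG2 and 13 (32.5%) in Huh7, with 10 in both. Among the 41 receptor genes, 11 (26.8%) were listed in HepG2 and 20 (48.8%) in Huh7, with 6 in both. The receptor share in HepG2 thus lay near the 23.9% of all protein-coding genes. When the 9 members that overlap another protein-coding gene on the same strand or have an identical copy on the other sex chromosome were left out, an alternative chosen after the data had been seen, 11 of 33 receptor genes (33.3%) were listed in HepG2 and 16 of 33 (48.5%) in Huh7. By the KEGG tables alone, the ligand and receptor shares in HepG2 were nearly equal, at 10 of 40 (25%) and 10 of 41 (24.4%), whereas in Huh7 they were 9 of 40 (22.5%) and 15 of 41 (36.6%). The order of ligands and receptors in HepG2 thus rested on the GO tables.

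**Figure D2:**
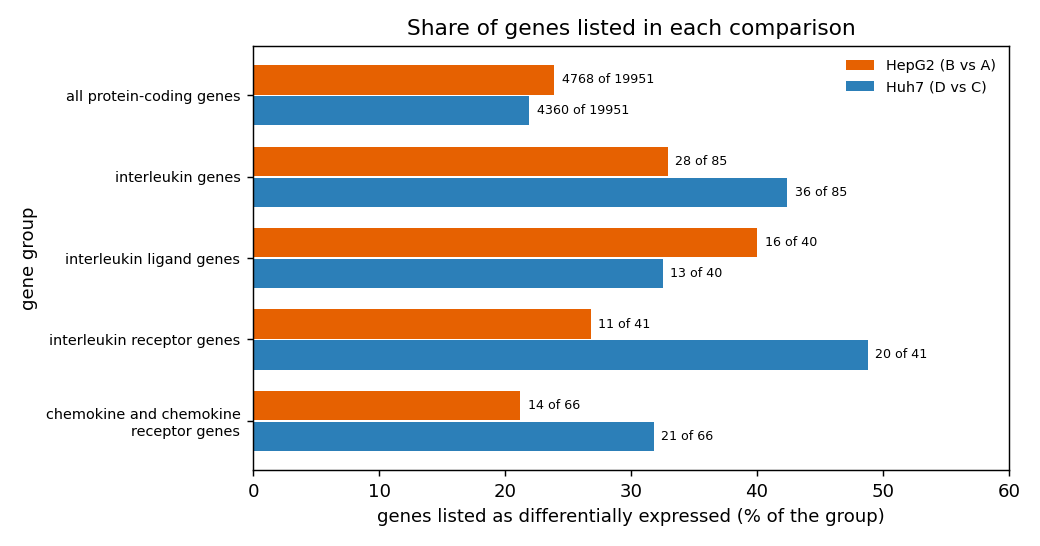
Share of genes listed (x axis, percent of each group) for all protein-coding genes, the interleukin genes, their ligand and receptor genes, and chemokine and chemokine receptor genes. Bars of receptor genes reach 26.8% in HepG2 and 48.8% in Huh7, and bars of ligand genes 40% and 32.5%.

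The ligands listed in both lines were IL1A, IL36G, IL20, IL24, IL17B, IL17D, IL17F, IL11, IL6 and IL16. IL6 (ENSG00000136244), the main inducer of the acute-phase response, and IL11 (ENSG00000095752), a fibrosis-associated cytokine, both signal through the shared chain gp130, encoded by IL6ST. IL1A encodes an alarmin, a protein that damaged cells release as a danger signal, and IL36G encodes a related cytokine of epithelia. IL20 and IL24 (ENSG00000162892) are neighbouring genes of the IL-10 family whose proteins act on epithelial cells. IL17F is a neutrophil-recruiting member of its family, and IL16 encodes a chemoattractant that binds CD4. All 3 listed members of the IL-17 ligand group, IL17B, IL17D and IL17F, were listed in both lines, and IL17A, IL17C and IL25 were in neither list.

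In HepG2 cells alone, the lists held the ligands IL15, IL19, IL22, IL27, IL31 and IL36A. IL15 sustains natural killer and memory T cells, IL22 acts on epithelia and hepatocytes, IL31 is known for its part in itch, and IL27 encodes a subunit of the IL-27 dimer. In Huh7 cells alone, the ligands were IL33, IL34 and IL9. IL33 (ENSG00000137033) is a nuclear alarmin, IL34 encodes a ligand of the macrophage receptor CSF1R, and IL9 is a cytokine of helper T cells and mast cells. By family, the HepG2 list held 4 of 6 IL-10 family ligands and the Huh7 list 2 of 6, while each list held 3 of 9 IL-1 family ligands and 3 of 6 IL-17 family ligands. The shares of all protein-coding genes were 23.9% and 21.9%. Of the ligands that signal through gp130, IL6 and IL11 were listed in both lines and IL27 in HepG2 alone. IL27 was grouped with the IL-12 family. IL31, grouped with IL6 and IL11 because its receptor chain IL31RA is related to gp130, was listed in HepG2 alone. Neither list held IL1B, IL18, IL36B, IL37 or IL1F10 of the IL-1 family, IL10 or IL26 of the IL-10 family, IL12A, IL12B or IL23A of the IL-12 family, or IL32. The helper T cell ligands IL2, IL4, IL13 and IL21, the lymphoid growth factor IL7 and the common beta chain ligands IL3 and IL5 were also in neither list.

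Promoter sequences from RefSeq (build GRCh38.p14) were available for 69 of the 85 interleukin genes, in 110 windows, as some genes have several starts. The 250 bases before each start were read on both strands for 5 short motifs. For IL6, IL11 and IL24, ligands listed in both lines with a single window each, the windows are shown so that the motifs can be seen in place. These genes were picked after the matches were known. Capitals mark the motifs, and each sequence runs 5′ to 3′ on the strand of the gene.
IL6, GRCh38.p14, chr7:22726950-22727199, plus strand: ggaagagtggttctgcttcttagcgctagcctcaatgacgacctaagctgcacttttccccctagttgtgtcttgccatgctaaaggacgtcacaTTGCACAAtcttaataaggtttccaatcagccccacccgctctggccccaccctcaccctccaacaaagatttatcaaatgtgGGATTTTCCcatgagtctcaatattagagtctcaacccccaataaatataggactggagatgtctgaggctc
IL11, GRCh38.p14, chr19:55370464-55370713, minus strand: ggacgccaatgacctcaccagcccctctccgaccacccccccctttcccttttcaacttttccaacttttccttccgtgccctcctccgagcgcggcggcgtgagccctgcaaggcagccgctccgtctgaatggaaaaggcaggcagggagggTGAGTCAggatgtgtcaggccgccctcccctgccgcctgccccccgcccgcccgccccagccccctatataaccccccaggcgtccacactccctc
IL24, GRCh38.p14, chr1:206897193-206897442, plus strand: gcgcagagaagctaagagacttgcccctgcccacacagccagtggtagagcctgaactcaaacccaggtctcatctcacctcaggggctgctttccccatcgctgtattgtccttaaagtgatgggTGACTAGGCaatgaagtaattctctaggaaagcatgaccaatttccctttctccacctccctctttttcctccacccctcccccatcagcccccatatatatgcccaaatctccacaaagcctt
In the IL6 window the capitals are a C/EBP motif (TTGCNNAA) from 155 to 148 bases before the start and a kappaB motif (GGNNTTTCC) from 72 to 64 bases before it. C/EBP factors and NF-kappaB are known activators of IL6. The IL11 window holds an AP-1 motif (TGANTCA) from 96 to 90 bases before the start. The IL24 window holds a motif of the antioxidant response element (TGACNNNGC) from 124 to 116 bases before the start.

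Across the interleukin genes, the AP-1 motif stood in 6 of 23 windows of genes listed in both lines (26.1%), those of IL1A, IL1RN, IL11, IL17B and IL17D. It stood in 4 of 13 windows (30.8%) of genes listed in HepG2 alone, those of IL15RA and IL19, and in 3 of 26 (11.5%) in Huh7 alone, those of IL10RA, IL1RL1 and IL9. It stood in 5 of 48 windows of interleukin genes in neither list (10.4%) and in 5.38% of the 21021 windows of all protein-coding genes. The antioxidant motif stood in 7 of the 23 windows (30.4%), those of IL16, IL17B, IL17D, IL1A and IL24, and in 3 of 13 windows (23.1%) of genes listed in HepG2 alone, all of IL15RA. In Huh7 alone it stood in 1 of 26 windows (3.85%), that of IL10RA, which is below the 11.2% of all windows, and in neither list in 3 of 48 (6.25%). The kappaB motif stood in 3 of the 23 windows (13%), those of IL6, IL1RN and IL17D, and in 5 of 26 windows (19.2%) of genes listed in Huh7 alone, those of IL18R1, IL1R2, IL1RL2, IL4R and IL9. Its share was 15.4% in HepG2 alone, from windows of IL18RAP, 8.33% for interleukin genes in neither list and 5.75% for all windows. A STAT motif (TTCNNNGAA) stood in 1 of the 23 windows (4.35%), that of IL17D, in 15.4% of windows in HepG2 alone, 7.69% in Huh7 alone (IL3RA), 6.25% in neither list and 5.91% of all windows. The C/EBP motif stood in 1 of the 23 (4.35%), that of IL6, in 0 of 13 in HepG2 alone, 11.5% in Huh7 alone (IL10RA and IL3RA), 12.5% in neither list and 7.45% of all windows. The windows are not independent, because IL17D and IL15RA have 4 each and windows of a gene can overlap, and the 2 windows of IL3RA are those of its copies on the sex chromosomes. AP-1 and antioxidant motifs overlapped each other in 3 windows, which belonged to IL10RA and IL15RA. A match is a string of letters and not a bound site.

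The receptor genes listed in both lines were IL6R, IL23R, IL2RB, IL7R, IL13RA2 and IL17RB. IL6R encodes the chain that binds IL-6, and IL2RB the signalling chain shared by the receptors of IL-2 and IL-15. IL7R serves in the receptors of both IL-7 and TSLP, IL13RA2 encodes a decoy receptor of IL-13, and IL17RB binds IL-17B and IL-25. In HepG2 cells alone, IL12RB1, IL15RA, IL18RAP, IL1RAPL2 and IL21R were listed. IL12RB1 is shared by the receptors of IL-12 and IL-23, IL15RA presents IL-15, IL18RAP encodes the accessory chain of the IL-18 receptor, and IL1RAPL2 belongs to a pair of synaptic relatives of the IL-1 receptor.

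In Huh7 cells alone, 14 receptor genes were listed. Among them were IL1R2, a decoy receptor that binds IL-1 without signalling, IL1RAP, the accessory chain shared by IL-1, IL-33 and IL-36, IL1RL1, the IL-33 receptor, IL1RL2, the IL-36 receptor, and IL18R1, the ligand-binding chain for IL-18. The others were IL4R and IL13RA1, which together form a receptor for IL-4 and IL-13, IL10RA, IL20RA and IL20RB of the IL-10 family, IL31RA, IL3RA, IL5RA and IL17REL. The HepG2 list held 0 of 6 IL-10 family receptor genes and the Huh7 list 3 of 6. For the IL-1 family receptors the counts were 2 of 9 (22.2%) and 5 of 9 (55.6%), with none shared. Of all protein-coding genes, 23.9% were listed in HepG2, 21.9% in Huh7 and 11.4% in both. The HepG2 share of these receptors thus lay near that of all genes, and with 9 genes few shared ones could be found. Of the common gamma chain group, in which IL-13 and its receptors were counted with IL-4, each list held 5 of 10 receptor genes, and 3 of them were shared. The receptor chains in neither list were IL1R1 and IL1RAPL1 of the IL-1 family, IL10RB, IL22RA1 and IL22RA2 of the IL-10 family, IL12RB2 and IL27RA of the IL-12 family, and IL17RA, IL17RC, IL17RD and IL17RE of the IL-17 family. IL2RA, IL2RG and IL9R of the gamma chain group and IL11RA and IL6ST of the gp130 group were also absent from both lists.

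IL1RL1 and IL18R1 overlap on the same strand, IL20RB overlaps NCK1, and IL4I1 overlaps NUP62, so reads of these genes may be shared with the partner and their listings are uncertain. IL3RA has an identical copy on the other sex chromosome, which makes its listing uncertain as well. The same holds for CRLF2 and CSF2RA among the relatives. Of the listed genes, IL6, IL16, IL12RB1, IL31, IL23R, IL1RAPL2 and IL4I1 overlap a gene on the opposite strand, as do the unlisted IL5, IL7, IL18, IL18BP and IL11RA, and whether strand was used in counting is not given in the sources used here. Among the 85 interleukin genes, the 5 listed genes with a same-strand partner or an identical copy were all in the Huh7 list alone. The unlisted genes IL2RG, IL10RB and IL11RA also overlap another gene on the same strand, and IL9R has an identical copy, so the absence of these 4 from the lists is equally uncertain.

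Among the inhibitors, IL1RN, the antagonist of the IL-1 receptor, was listed in both lines, and IL36RN, the antagonist of the IL-36 receptor, was listed in Huh7 alone. IL18BP, which binds IL-18 in solution, was in neither list. Both IL1A and its antagonist IL1RN were therefore listed in each line, without the receptor gene IL1R1. IL4I1 was listed in Huh7 alone.

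Ligand and receptor listings were set side by side for 36 ligands with well-known receptor chains, CSF1R for IL-34 and CD4 for IL-16 included. Some chains, such as IL1RAP, serve several ligands, so the ligands are not separate cases. Of the 41 interleukin receptor genes, 26.8% were listed in HepG2 and 48.8% in Huh7, beside 23.9% and 21.9% of all protein-coding genes. Whether ligands had listed chains more often than these shares would give was not tested. In HepG2 cells 15 of the 36 ligands were listed. Of the 15, 4 (IL6, IL15, IL16 and IL17B) had at least 1 listed receptor chain, whereas 11 had none. In Huh7 cells 12 of the ligands were listed, of which 8 had a listed chain: IL1A, IL33, IL36G, IL6, IL20, IL24, IL17B and IL16. The 4 without were IL9, IL11, IL17F and IL34. Every chain was listed for IL17B and IL16 in both lines, and for IL33 and IL36G in Huh7. For IL33 this rests on IL1RL1, whose listing is uncertain because it overlaps IL18R1. IL20 and IL24 were listed in both lines, while their receptor chains IL20RA and IL20RB were listed in Huh7 alone. IL15, IL15RA and IL2RB were all listed in HepG2, and of these IL2RB alone was listed in Huh7. A listed receptor chain without its ligand was found for 9 ligands in HepG2 and 18 in Huh7. IL13 was such a ligand in Huh7, where both IL4R and IL13RA1 were listed, and so was IL23A in HepG2, where both IL23R and IL12RB1 were listed.

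Many interleukin genes lie beside each other. With starts no more than 500 kb apart, 41 of the 85 genes fell into 13 clusters, and 21 of the 41 (51.2%) were listed at least once, beside 26 of 44 genes (59.1%) outside clusters and 34.3% of all protein-coding genes. The IL-1 receptor cluster held 6 genes in the order IL1R2, IL1R1, IL1RL2, IL1RL1, IL18R1 and IL18RAP. In this cluster 4 genes were listed in Huh7, 1 in HepG2 (IL18RAP) and 0 in both, where 11.4% of all protein-coding genes were listed in both. The 4 genes listed in Huh7 include the overlapping pair IL1RL1 and IL18R1, whose listings are uncertain. The IL-1 ligand cluster held 9 genes from IL1A to IL1RN, of which 4 were listed in each line and 3 (IL1A, IL36G and IL1RN) in both. In the cluster IL10, IL19, IL20 and IL24, IL10 was in neither list, IL19 was listed in HepG2, and IL20 and IL24 in both. The 4 genes of the helper T cell cluster IL3, IL5, IL13 and IL4 were in neither list.

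**Figure D3:**
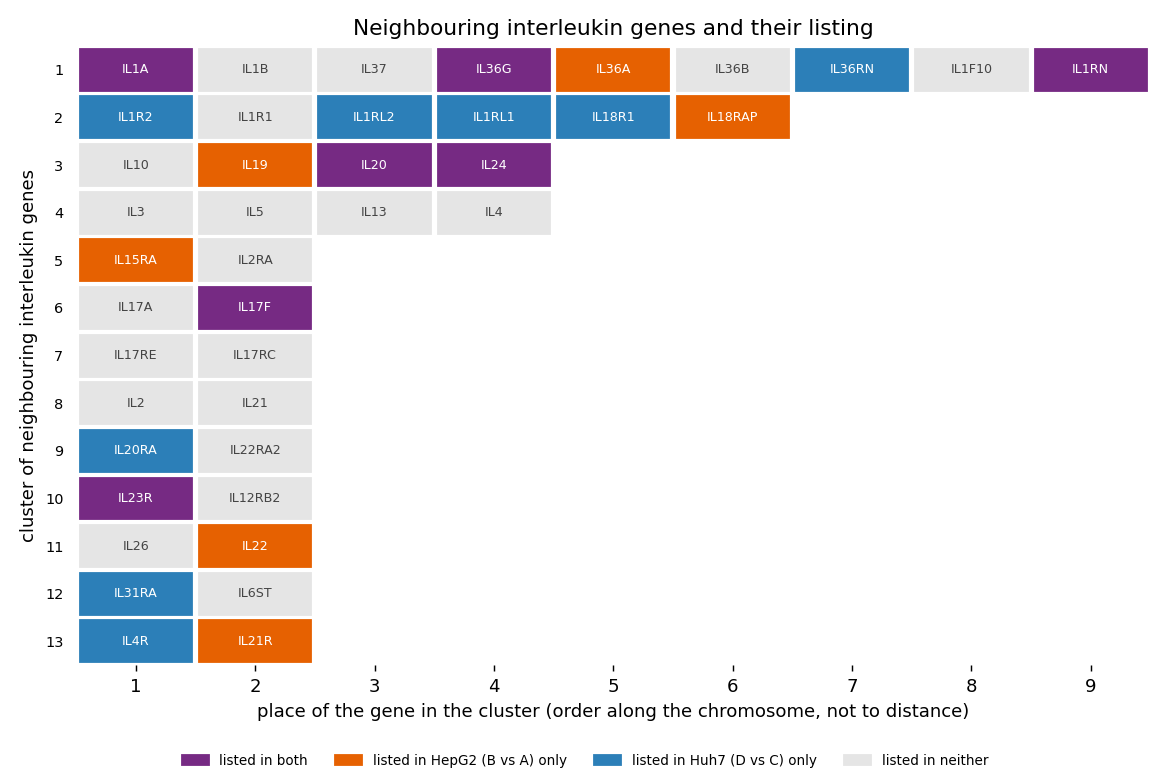
Neighbouring interleukin genes in chromosome order, with 1 row per cluster of genes whose starts lie no more than 500 kb apart and tiles coloured by listing. The row of IL1R2 to IL18RAP has 4 genes listed in Huh7 alone and 1 in HepG2 alone, and the row of IL3 to IL4 has none listed.

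Interleukin genes, the ligand genes above all, had shorter transcripts than protein-coding genes in general. The median of the longest transcript was 2132 bases over the 85 genes and 3157 bases over 19922 protein-coding genes with a transcript sequence. It was 1454 bases for ligand genes and 3008 bases for receptor genes. Ligand genes listed in both lines had a median of 1686 bases and those in neither list 1366 bases. For receptor genes these medians were 3512 and 2985 bases. Over all protein-coding genes, the median was 3294 bases for genes listed in both lines and 3079 bases for those in neither. Taking all 85 interleukin genes, however, those listed in both lines had the shorter median, 1922 bases against 2034 bases in neither list. Ligand genes listed in HepG2 alone had a median of 1104 bases and receptor genes listed there alone 2901 bases, both below the genes of their role in neither list. In Huh7 alone, these medians were 1779 bases for ligand genes and 3676 bases for receptor genes. Transcript length and listing thus had no single order.

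Since the listings were collected from the GO tables, the GO terms show where the interleukin genes stood and are no separate evidence. Under cytokine activity, 17 of the 68 listed genes in HepG2 and 15 of the 73 in Huh7 were interleukin genes, where the term held 268 background genes, of which 25.4% and 27.2% were listed. Under cytokine receptor activity, with 95 background genes, 11 of 26 listed genes in HepG2 and 18 of 35 in Huh7 (51.4%) were interleukin receptors. Cytokine binding had 6 interleukin genes among 39 listed genes in HepG2 and 14 among 45 in Huh7. Cytokine receptor binding had 15 among 76 and 12 among 82, which were 23.1% and 24.9% of its background genes. The listed shares of these ligand terms were a little higher in Huh7, unlike the share of interleukin ligand genes. The broad term cytokine-mediated signaling pathway held 874 background genes, of which 212 (24.3%) and 204 (23.3%) were listed, with 26 and 33 interleukin genes among them. Its listed shares lay near the 23.9% and 21.9% of the 19951 protein-coding genes, which have another base. The term shares are over the authors' 22148 background genes, of which 4783 were listed in HepG2 and 4369 in Huh7. Cytokine production held 16 interleukin genes among 223 listed genes in HepG2 and 22 among 217 in Huh7. The JAK-STAT cascade term held 6 interleukin genes in each line, of which IL20, IL23R, IL24, IL6 and IL6R were common to both, with IL15 in HepG2 and IL31RA in Huh7. The same genes stood under the terms for regulation and positive regulation of this cascade. Response to cytokine stimulus and its cellular form held 26 interleukin genes in HepG2 and 33 in Huh7. Their listed shares of background genes were 24.9% and 24.3% in HepG2 and 23.5% and 22.7% in Huh7. Cytokine secretion held 3 interleukin genes in HepG2 (IL17F, IL17RB and IL1A) and 8 in Huh7, with IL1R2, IL1RAP, IL1RL1, IL33 and IL4R added. Its listed share was in the other order, 67 of 242 background genes (27.7%) in HepG2 and 60 (24.8%) in Huh7. Negative regulation of cytokine production held IL23R alone in HepG2 and 6 interleukin genes in Huh7, with IL1R2, IL1RL1, IL20RB, IL33 and IL36RN added. Cytokine biosynthetic and metabolic processes held 5 interleukin genes in each line, of which IL17F, IL1A and IL6 were common.

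Terms named for a single interleukin held between 1 and 181 background genes in those read here. Of the 7 background genes with interleukin-1 receptor activity, 1 was listed in HepG2 (IL1RAPL2) and 5 in Huh7 (IL18R1, IL1R2, IL1RAP, IL1RL1 and IL1RL2). Among these 5, IL18R1 and IL1RL1 overlap each other and their listings are uncertain. Of the 22148 background genes over all terms, 4783 were listed in HepG2 and 4369 in Huh7. Under the interleukin-1-mediated signaling pathway, 3 interleukin genes were listed in HepG2 (IL1A, IL1RN and IL6) and 6 in Huh7, with IL1R2, IL1RAP and IL1RL2 added. Its listed share was in the other order, 19 of 55 background genes (34.5%) in HepG2 and 16 (29.1%) in Huh7. Interleukin-6 production held 9 interleukin genes among 52 listed genes in HepG2 and 10 among 47 in Huh7. Interleukin-5 production held 1 among 5 in HepG2 (IL17RB) and 6 among 8 in Huh7 (IL17RB, IL1RAP, IL1RL1, IL33, IL5RA and IL9). For the response to interleukin-15, 25 of 51 background genes were listed in HepG2 and 19 in Huh7, and IL2RB and IL7R were among them in both. The following terms were chosen after their values had been seen. All 3 background genes of the interleukin-33-mediated signaling pathway, IL33, IL1RL1 and IL1RAP, were listed in Huh7 and 0 in HepG2. The listing of IL1RL1 is uncertain, because it overlaps IL18R1. Both genes of the interleukin-23 receptor complex, IL12RB1 and IL23R, were listed in HepG2, and IL23R alone in Huh7. In each line IL6 and IL6R were listed under the interleukin-6 receptor complex, which holds 3 background genes.

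The KEGG tables named fewer interleukin genes. Only genes drawn in a pathway can enter them, but whether the missing genes are drawn in any pathway was not looked up. They held 20 of the 28 genes listed in HepG2 and 25 of the 36 in Huh7, and no interleukin gene that the GO tables lacked. Of all protein-coding genes, the KEGG tables held 8.46% in HepG2, 8.19% in Huh7 and 4.31% in both. Genes in no pathway could not be listed there, which lowers these shares. IL16, IL17D, IL1RN and IL36G, listed in both lines under GO terms, stood in no pathway of the KEGG tables. IL6 stood in 32 pathways in each line and IL1A in 17. In cytokine-cytokine receptor interaction, 78 of 265 genes (29.4%) were listed in HepG2, 18 of them interleukin genes, and 93 (35.1%) in Huh7, 21 of them interleukin genes. In the Jak-STAT signaling pathway, interleukin genes made up 15 of 45 listed genes (33.3%) in HepG2 and 17 of 40 (42.5%) in Huh7. The listed share of the whole pathway, 28.8% of 156 genes in HepG2 and 25.6% in Huh7, was in the other order. Hematopoietic cell lineage held 5 interleukin genes in HepG2 and 9 in Huh7, where IL1R2, IL3RA, IL4R and IL5RA were added. Inflammatory bowel disease, a pathway drawn around IL-23 and helper T cell cytokines, held 8 in HepG2 and 5 in Huh7, with IL17F, IL1A, IL23R and IL6 in both. In the PI3K-Akt signaling pathway, the same 4 genes, IL2RB, IL6, IL6R and IL7R, were listed in each line, with IL3RA and IL4R added in Huh7. The listed share of this whole pathway was 33.1% in HepG2 and 29.1% in Huh7. The remaining pathways with at least 3 interleukin genes in a line were mostly disease pathways that share IL6 and IL1A, namely rheumatoid arthritis, measles, non-alcoholic fatty liver disease, influenza A and tuberculosis. HTLV-I infection and transcriptional misregulation in cancer shared IL6 and IL2RB, apoptosis shared IL1A, and the intestinal immune network for IgA production shared IL6.

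**Figure D4:**
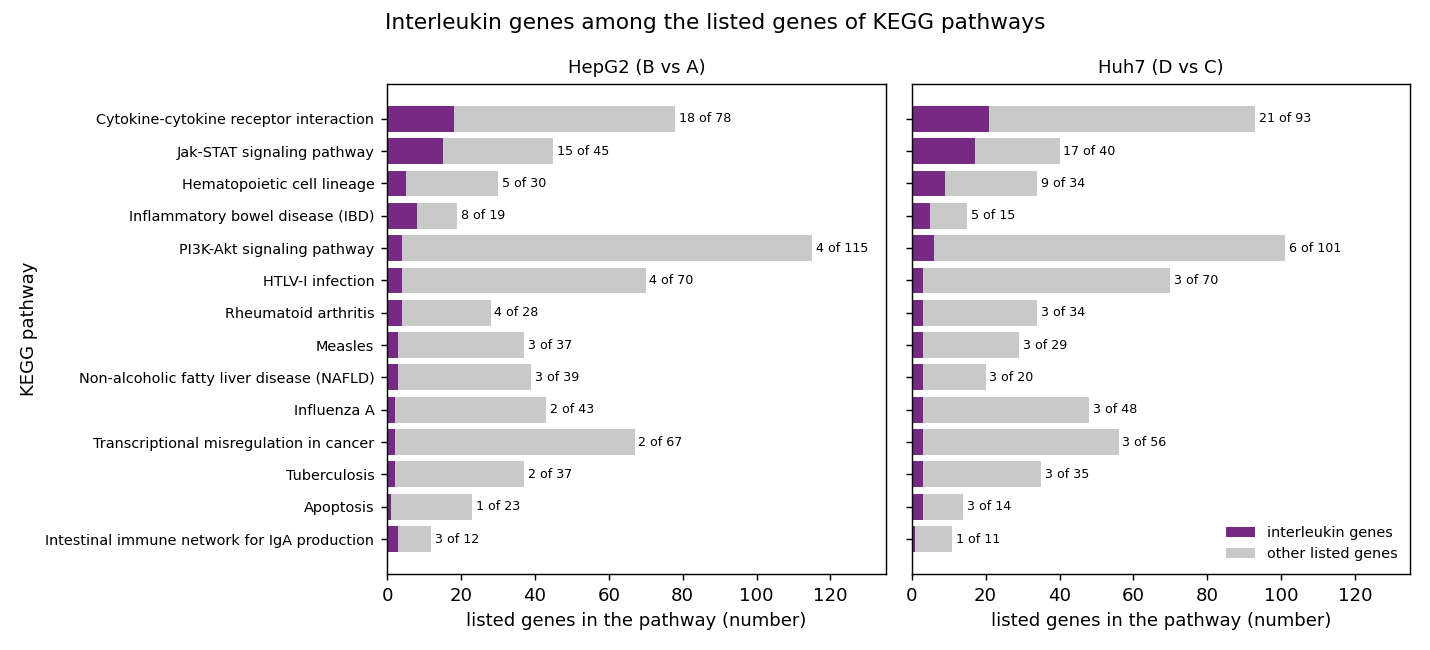
Listed genes (x axis, number) in the KEGG pathways with at least 3 interleukin genes in either comparison, split into interleukin genes and other listed genes, with HepG2 cells in the left panel and Huh7 cells in the right. The Jak-STAT signaling pathway has 15 interleukin genes among 45 listed genes in HepG2 and 17 among 40 in Huh7.

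Relatives that carry no IL symbol were also among the listed genes. Of 11 ligand relatives, CXCL8, EBI3, LIF and CTF1 were listed in both lines, TSLP in HepG2 alone and CLCF1 in Huh7 alone. That made 5 of 11 (45.5%) in each line, beside 23.9% and 21.9% of all protein-coding genes. EBI3 encodes the partner of the IL27 product, so both subunits of IL-27 were listed in HepG2. CXCL8 encodes a neutrophil chemoattractant induced by IL-1, and LIF and CTF1 signal through gp130 and the chain LIFR. Of 11 receptor relatives, LIFR and CSF2RA were listed in both lines, CRLF2 and SIGIRR in HepG2 alone and CNTFR in Huh7 alone. That made 4 of 11 (36.4%) in HepG2 and 3 of 11 (27.3%) in Huh7. The listings of CRLF2 and CSF2RA are uncertain, because each has an identical copy on the other sex chromosome. TSLP and both chains of its receptor, CRLF2 and IL7R, were listed in HepG2, whereas in Huh7 IL7R was listed without the others.

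Downstream of the receptors, 4 of 10 JAK and STAT genes were listed in HepG2 (JAK3, STAT2, STAT4 and STAT6) and 1 of 10 in Huh7 (STAT2). The feedback inhibitors SOCS1 and SOCS3 were listed in both lines, with the phosphatase gene PTPN6 in HepG2 and SOCS7 in Huh7, which made 3 of 16 in each. Of 14 adaptors of IL-1 and IL-17 receptors, MYD88, IRAK2, IRAK3 and TOLLIP were listed in HepG2, and IRAK3, an inhibitory member of its group, and TAB3 in Huh7. Of 12 genes for the processing of interleukins, 4 were listed in each line. They were CASP1, the protease that matures IL-1 beta and IL-18, with CASP4, NLRP1 and NLRC4 in HepG2, and CASP5, NLRP1, NLRP3 and ADAM10 in Huh7. The adaptor share was 28.6% in HepG2 and 14.3% in Huh7, beside 23.9% and 21.9% of all protein-coding genes. These lists are short, and differences between the lines were not tested.

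The hepatic acute phase list, made mostly of targets of IL-6 and IL-1, gave 3 of 20 (15%) in HepG2 and 13 of 20 (65%) in Huh7. Of all protein-coding genes, 23.9% were listed in HepG2 and 21.9% in Huh7, so the HepG2 share of this list lay below that of all genes. HPX, the heme carrier hemopexin, the complement gene C3 and the factor gene CEBPB were listed in both. In Huh7 cells the list also held the fibrinogen genes FGA, FGB and FGG, the iron regulator HAMP, the constitutive serum amyloid gene SAA4, and the near-identical pair ORM1 and ORM2, whose reads may be shared. CRP, SAA1, SAA2, HP, LBP, SERPINA1 and CEBPD, among which CRP and SAA1 are well-known targets of IL-6 and IL-1, were in neither list. The GO term acute-phase response, with 55 background genes, had 17 listed in HepG2 and 20 in Huh7, and IL1A, IL1RN, IL6 and IL6R were among them in both. Hepatocyte markers were listed in 3 of 8 cases in HepG2 (ALB, AFP and HNF4A) and in 6 of 8 in Huh7, with APOA1, TTR and APOB added. The acute-phase set and the hepatocyte marker set thus both had more genes listed in Huh7, and they share SERPINA1, which was in neither list. For the GO term acute-phase response the listed shares were closer, at 30.9% in HepG2 and 36.4% in Huh7. The difference between the lines was not tested, nor was the part of a broader shift in liver genes in the acute-phase count.

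Many interleukin receptors are best known from leukocytes, and leukocyte markers were also listed in these lines. Of 12 leukocyte markers, 9 (75%) were listed in HepG2 and 7 (58.3%) in Huh7. Of all protein-coding genes, 23.9% were listed in HepG2, 21.9% in Huh7 and 11.4% in both lines. With so few markers, the difference from all genes was not tested. The myeloid markers CD14, LYZ, ITGAM and CD68, the leukocyte marker PTPRC, CD4 and the B cell marker CD79A were listed in both, and CSF1R and MS4A1 in HepG2 alone. Of the 4 T cell markers, CD4 was thus listed in both lines, whereas CD3D, CD3E and CD8A were in neither list. The endothelial markers PECAM1, VWF and CDH5 were listed in both lines. Of 3 stellate cell and fibroblast markers, DCN was listed in HepG2 alone, ACTA2 in Huh7 alone and COL1A1 in neither line. Levels of these markers were not given in the tables used here, and their part in the interleukin listings was not tested.

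**Figure D5:**
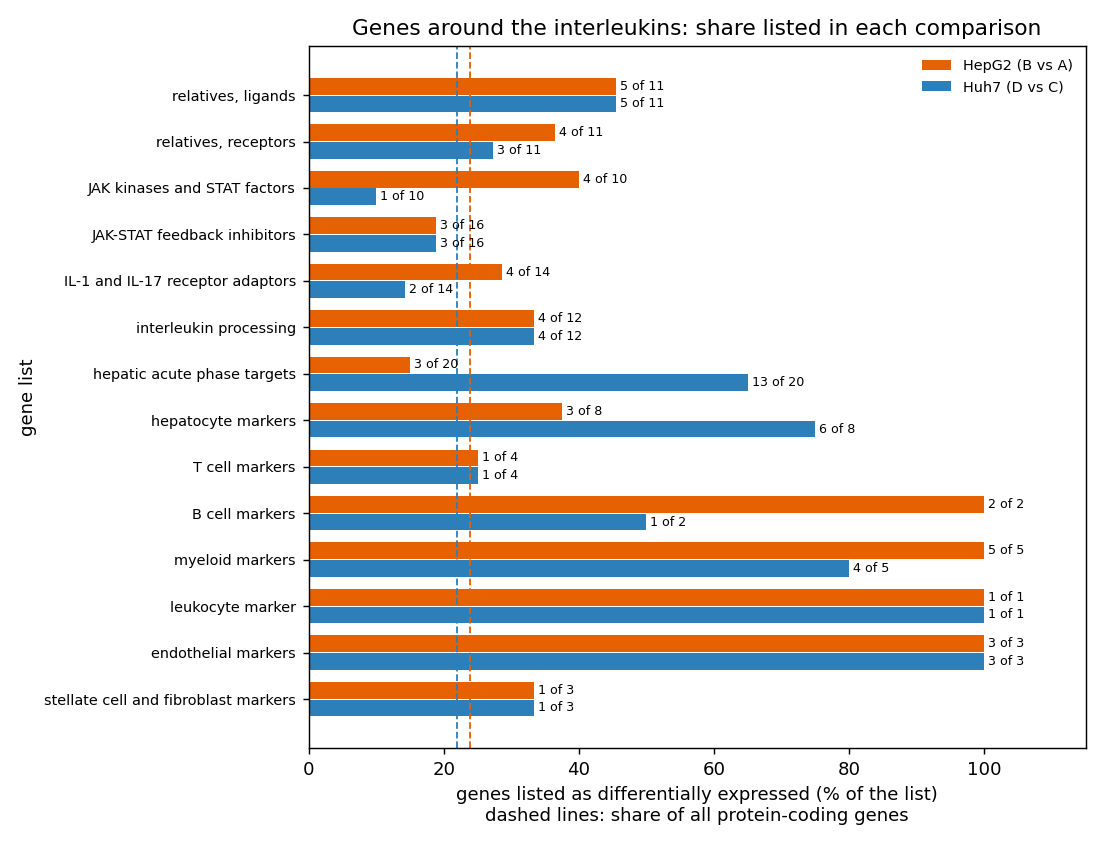
Share of genes listed (x axis, percent of each list) for relatives of the interleukins, their signal transducers, targets and cell type markers in HepG2 and Huh7 cells, with dashed lines at the 23.9% and 21.9% of all protein-coding genes. The bars of hepatic acute phase targets reach 15% in HepG2 and 65% in Huh7.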

How the data were processed

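RNA depleted of ribosomal RNA was converted to strand-marking libraries, with 1 library in each of 4 groups taken from the sample labels. The submitters' processing notes name HISAT2, Bowtie2 2.2.8, StringTie 1.3.1 and Cuffdiff 2.1.1, whereas the genome build and annotation are not given in the sources used here. The authors called mRNAs differentially expressed at an adjusted p-value under 0.05. For these calls the authors name Cuffdiff in one section and edgeR in another, and which of them made the lists is not known. The authors deposited tables of GO terms (GOseq) and KEGG pathways (KOBAS) with counts and identifiers of listed genes. The p-value columns hold the authors' own comparisons and were not used.

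Listed genes were collected from all GO rows with Python 3.11.15 and matched by Ensembl identifier to GENCODE release 29, in which all 85 interleukin genes were found. Figures were drawn with matplotlib 3.10.9. The parsing and motif search were tested on simulated data. Counts and shares were computed without a test, because each group has 1 library and the tables hold no levels. Every interleukin gene listed at least once was named, and for the other lists up to 10 listed genes. GO terms on interleukins, cytokines or the JAK-STAT cascade could be named when at least 5 interleukin genes were listed under them, and KEGG pathways when at least 3 were. Smaller GO terms and the acute-phase response were chosen after their values had been seen. The members and lists were chosen with earlier results of these data known. A gene of the JAK and STAT list and a gene of the leukocyte marker list are not reported here and were left out of the counts.

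A gene absent from both lists may be unchanged, too low to test or without a GO annotation, which cannot be told apart. The 47 genes listed at least once carry an annotation, so their absence from the other list means that they were not called there. Since each stood under at least 29 GO rows, the listing did not depend on a single term. Alternatives were the KEGG tables alone or added, at least 10 GO rows, 17 relatives added, and genes outside the classical families left out. Leaving out overlapping or duplicated genes was added after the data had been seen.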

Additional observations from a re-analysis of the deposited data

How the results depend on the processing

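Adding the KEGG tables to the GO tables, or requiring at least 10 GO rows, could not change the 7 counts, because the KEGG tables named no further interleukin gene and every listed one stood under at least 29 GO rows. Some of the other 28 alternative values were fixed as well. Leaving out overlapping or duplicated genes could not change the HepG2 counts, the count in both lines or the Huh7 ligand count. None of the genes left out was among those counted there. Of the 28 values, 27 lay within 1.5 times the reported count. The exception was the number of ligand genes listed in HepG2, which was 16 with the GO tables and 10 with the KEGG tables alone. The listed ligands that the HepG2 KEGG table lacked were IL16, IL17D, IL27, IL31, IL36A and IL36G. By construction, the KEGG tables cannot list a gene that stands in no KEGG pathway. Whether this holds for these ligands was not looked up. With the KEGG tables alone, 20 interleukin genes (23.5%) were listed in HepG2, 25 (29.4%) in Huh7 and 13 (15.3%) in both, where all protein-coding genes had shares of 8.46%, 8.19% and 4.31%, lowered by the genes that stand in no pathway. With 17 of the relatives added (CSF2RA, CNTF, CNTFR, CXCR1 and CXCR2 were not among them), the counts were 36 of 102, 42 of 102 and 22 in both. The error of the counts is unknown, because each group has 1 library, and the depth was not used here. No paired analysis was possible because the tables hold gene lists without the level of a gene in each library.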
